A study of Mus musculus with 12 samples.

Results

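The comparison described here set ribosome-associated RNA against total RNA in control mouse embryonic fibroblasts. Its members are the 6 control libraries of the series, 3 of each RNA source, out of 12 libraries in all; the other 6 come from HTT-deleted cells. They were chosen by their labels alone, as the count tables labelled control in both RNA sources. All cells were primary cultures from E13.5 embryos carrying floxed alleles of Htt (HTTfl/fl), the gene of the scaffold protein huntingtin. The control cells received a lentivirus for an H2B-eGFP fusion protein and keep both floxed alleles, and the HTT-deleted cells received a lentivirus for Cre recombinase and GFP. The labels name no promoter for either vector, no share of transduced cells and no number of embryos per culture. Cells were harvested at day 7 after transduction, 1 part in 15 of the suspension was set aside for total RNA, and ribosomes were pelleted from the rest. Libraries with the same replicate number therefore came from 1 suspension and form a pair. A replicate counted as independent when it came from another primary culture or another passage. The pair enters the fit as a block, so the p-values rest on how far ratios within a pair varied between cultures or passages. With 2 residual degrees of freedom, the fit moderated each gene's spread by that of the other genes. The p-value of a single gene therefore does not measure the spread of that gene alone.

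A messenger RNA is read by ribosomes that assemble at its start codon, usually after scanning the 5′ untranslated region, and move along the coding sequence. RNA that stays in the nucleus, has no open reading frame or waits in silenced particles carries few or no ribosomes, so a ribosome pellet is used as a measure of what is being translated. Messages of ribosomal proteins and elongation factors share a 5′ terminal pyrimidine tract, the TOP motif, through which growth signals set their loading. The yield of a pellet also depends on the purification, and it can hold other dense particles.

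All values below are ratios within a gene: the log2 ratio is the fitted level in ribosome-associated RNA minus that in total RNA, on a scale where the typical gene is near 0. Levels are in CPM, read counts scaled to a common library size after TMM normalisation, and since CPM are not divided by transcript length they are compared between libraries and not between genes. A ratio above 0 means a larger share of the ribosome-associated library after TMM scaling, not more molecules per cell. Near 0 the sign can depend on the scaling. In bulk cultures, fewer cells of a type and less RNA per cell cannot be told apart.

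Libraries held 16789356 to 30571501 gene counts. Reads in no annotated feature made up 7.09 to 7.24% of total RNA libraries and 2.68 to 2.91% of ribosome-associated libraries, with no overlap (exact permutation test, two-sided, p = 0.1, the smallest that 3 against 3 can give). The first principal component held 48.8% of the variance and separated the RNA sources, and the second held 29.0%. Pair 1 differed from the others: cytosolic ribosomal protein genes took 5.95% of counts in its ribosome-associated library against 4.81 and 5.18% in the other 2, and its ratios depended more on coding length. Results without pair 1 are therefore given beside those it touches. Of 10 fibroblast markers all 10 were detected, with a summed level of 29836 to 40379 CPM in total RNA and 23872 to 35456 CPM in ribosome-associated RNA. The 7 erythroid markers reached at most 0.0985 CPM together.

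Of 14990 genes tested, 7524 (50.2%) differed between the RNA sources at an adjusted p under 0.05. Of these, 3647 (24.3% of genes tested) were higher in ribosome-associated RNA and 3877 (25.9%) were lower. The rises were small and the falls were larger: the median of the genes called higher was 0.40 (1.32-fold) and that of the genes called lower was -0.58 (1.5-fold), against 0.02 over all genes. Past 4-fold there were 4 rises and 336 falls, and 96 of these falls were in protein-coding genes. In all 3 ribosome-associated libraries, 3012 genes (20.1%) lay above every total library, and 3599 (24%) lay below. Without the replicate block the counts were 1499 higher and 2246 lower.

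Long noncoding RNAs of the nucleus were mostly depleted. Of 27 tested members of a list of nuclear-retained and regulatory long noncoding RNAs, 17 fell and 1 rose, with a median log2 ratio of -1.0. Xist (ENSMUSG00000086503, chromosome X, 103460366 to 103483254, minus strand), which coats and silences an X chromosome, was at 150, 317 and 125 CPM in total RNA and at 2.04, 2.76 and 1.46 CPM in ribosome-associated RNA of replicates 1, 2 and 3. The groups lay far apart, and replicate 2 was highest in both. Its log2 ratio was -6.54 (SE 0.12, adjusted p = 1.6e-13), a 93.3-fold difference. Kcnq1ot1 (ENSMUSG00000101609, chromosome 7, 143203458 to 143296549, minus strand), which silences an imprinted cluster in cis, went from 34.0, 40.3 and 27.4 CPM to 1.24, 1.43 and 0.648 CPM, a log2 ratio of -4.99 (SE 0.14, adjusted p = 3.9e-11). Firre, a nuclear RNA of the X chromosome, fell by 2.37 (SE 0.09) on the log2 scale and Mir99ahg, a microRNA host, fell by 2.35 (SE 0.11). Neat1, the scaffold of paraspeckles, fell by 1.00 (SE 0.10), from 477 to 597 CPM to 187 to 331 CPM.

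Other members varied more between replicates. Malat1, a nuclear speckle RNA, was at 867, 875 and 1160 CPM in total RNA and 194, 422 and 255 CPM on ribosomes (log2 ratio -1.80, SE 0.26, adjusted p = 0.0035). The groups did not overlap, but replicate 2 was higher than the other 2 on ribosomes. The imprinted RNA Meg3 (-4.03, SE 0.39) and Dnm3os, the host of miR-199a and miR-214 (-2.58, SE 0.25), spread in the same way, with ribosome-associated replicate 2 at 34.0 CPM against 9.29 and 6.13 CPM for Meg3 and at 103 CPM against 67.2 and 35.9 CPM for Dnm3os. For these 3 genes the call ended without pair 1 (adjusted p = 0.32, 0.20 and 0.24 for Malat1, Meg3 and Dnm3os) and with no filter on low counts, while the ratios stayed at -1.62, -3.74 and -2.56 without pair 1. H19, an imprinted RNA that hosts miR-675, was the list's 1 rise: it went from 2619.7, 2124 and 3288 CPM to 3939.6, 3091 and 5494 CPM, higher on ribosomes in every pair (log2 ratio 0.62, SE 0.09, adjusted p = 4.8e-05). Tug1 (-0.04) and Peg13 (0.00) did not pass. Rn7sk, the RNA that holds the elongation factor P-TEFb inactive, was at 1.02 to 2.56 CPM and fell by 3.46 (SE 0.45), and it is a low-count gene here.

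Noncoding hosts of small nucleolar RNAs had members on both sides of 0. Of 15 tested, 5 rose and 4 fell, with 5 and 6 without pair 1, and these shares lie near the 24.3 and 25.9% of all genes. Gas5, which carries a TOP motif, rose by 0.55 (SE 0.08) from 79.5, 144 and 77.3 CPM to 135, 210 and 98.8 CPM, with the groups overlapping because replicate 2 was high in both. Snhg8 (0.65, SE 0.09), Zfas1 (0.44, SE 0.11), Snhg18 (0.41, SE 0.10) and Snhg1 (0.33) also rose, and Snhg17 (-1.67), Snhg20 (-1.42), Dancr (-1.0) and Snhg3 (-0.45) fell. The exons of Gas5, Snhg8 and Zfas1 include 15.2 to 18.5% of bases annotated to other genes too, mostly the small RNAs they host.

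**Figure D1:**
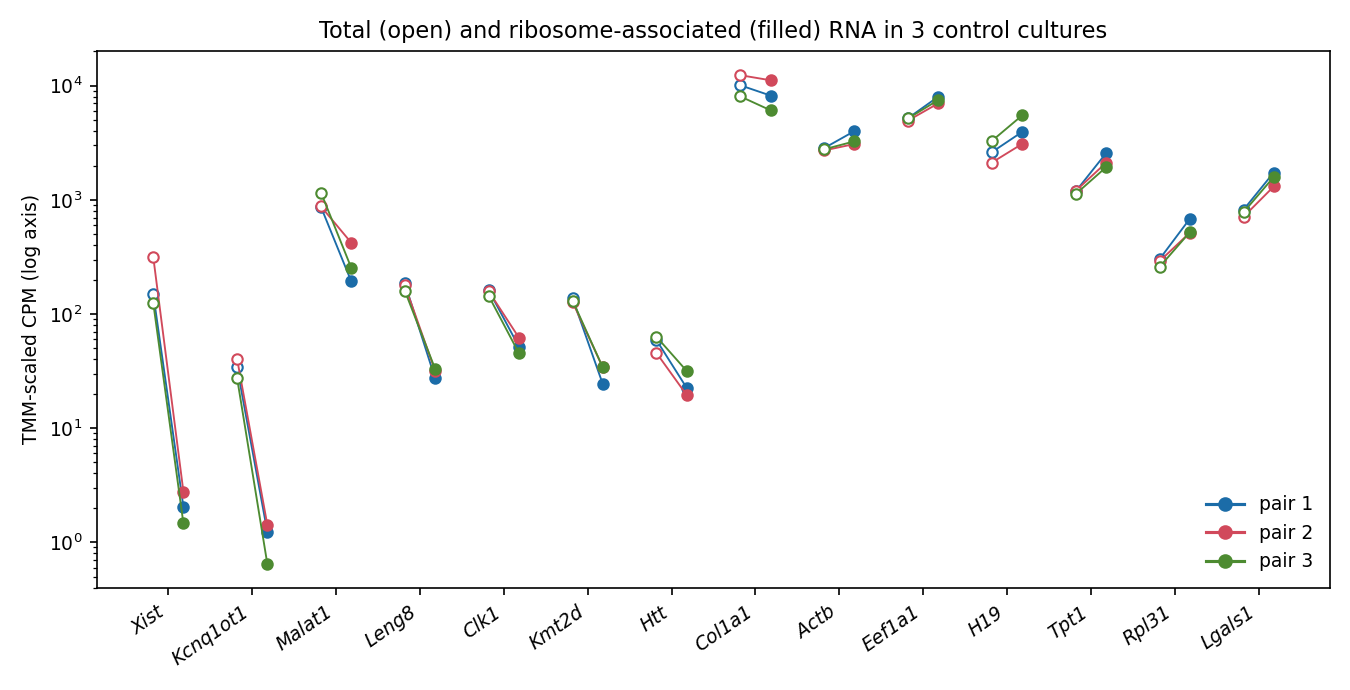
Levels of 14 genes in each control library, on a log axis in TMM-scaled CPM, with open circles for total RNA and filled circles for ribosome-associated RNA in the colour of their pair. Xist and Kcnq1ot1 fall in every pair to under 3 CPM, Clk1, Kmt2d and Leng8 fall without overlap, and H19, Tpt1, Rpl31 and Lgals1 rise in every pair.

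The annotated RNA classes differed in the same direction. Of 1175 tested long noncoding genes, 449 (38.2%) fell and 47 (4%) rose, with a median of -0.48, beside 3353 falls (25.3%) and 3422 rises (25.8%) among 13243 nuclear protein-coding genes with a median of 0.03. Sense-intronic RNAs, which lie within the introns of other genes on the same strand, had the lowest class median at -2.45, with 32 of 38 falling and none rising. TEC, provisional transcripts that await an experimental test, had a median of -1.99, with 161 of 251 falling. LincRNAs (-0.30), antisense RNAs (-0.22) and processed transcripts (-0.41) lay closer to 0. Most of these genes are rare, with class medians of 0.906 to 2.15 CPM in total RNA. Processed pseudogenes went the other way, with 149 of 378 rising and 22 falling, and a pair-1 median of 0.88 beside 0.20 and 0.43 in pairs 2 and 3. They share sequence with their parent genes, among them ribosomal protein genes, so their reads are uncertain. No source used here gives the strand setting of the counting, so reads of antisense genes and of their partners cannot be told apart.

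**Figure D2:**
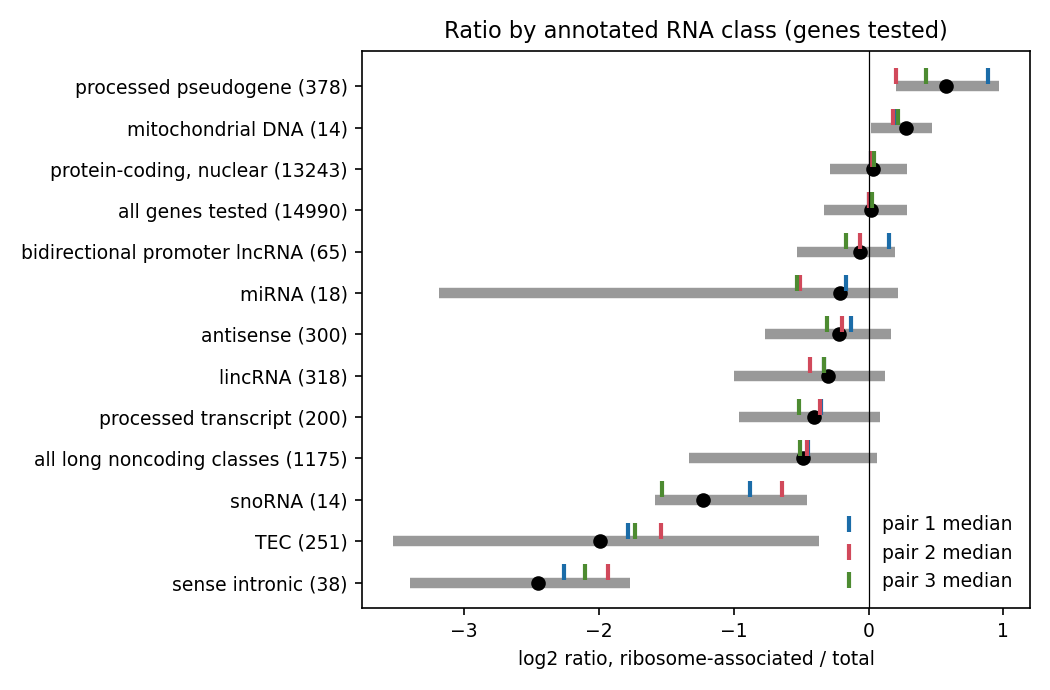
Log2 ratio of ribosome-associated to total RNA by annotated class, where black dots are class medians over the 3 pairs, grey bars the quartiles and coloured ticks the median in each pair, with the number of genes tested in brackets. Sense-intronic RNAs and TEC lie lowest at -2.45 and -1.99, and protein-coding genes are centred at 0.03.

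Among protein-coding genes the ratio followed coding length. The 13235 genes with an annotated coding sequence were split by its length into 10 groups of near-equal size, called deciles. The shortest decile (78 to 540 bases) had a median log2 ratio of 0.44, with 67.4% of genes higher and 4.38% lower. The longest decile (3489 to 26400 bases) had a median of -0.54, with 0.151% higher and 78.8% lower, and the medians of the 8 deciles between them fell in order. Spearman's correlation across genes was -0.644, and genes are not independent replicates. It was -0.681 in pair 1 and -0.543 and -0.533 in pairs 2 and 3, and -0.571 in the fit without pair 1. The range between the outermost deciles was wider in pair 1 (0.61 to -0.78) than in pair 2 (0.35 to -0.48) or pair 3 (0.35 to -0.38).

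Other features of the same transcripts tracked the ratio less. Spearman's correlation across genes was -0.519 for whole transcript length, -0.517 for the number of exons, -0.146 for the length of the 3′ untranslated region and -0.0759 for that of the 5′ untranslated region. For transcript GC content it was -0.0559 over the 3 pairs but 0.00628, -0.0765 and -0.110 in pairs 1, 2 and 3. Upstream ATG triplets in the 5′ untranslated region barely separated genes once coding length was taken into account. Genes with 4 or more had a median of -0.0153 relative to the median of their own coding-length decile, and genes with none had 0.00364. The longest decile of 3′ untranslated regions (3530 bases or more) lay at -0.115 by that measure and the shortest at 0.0475.

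**Figure D3:**
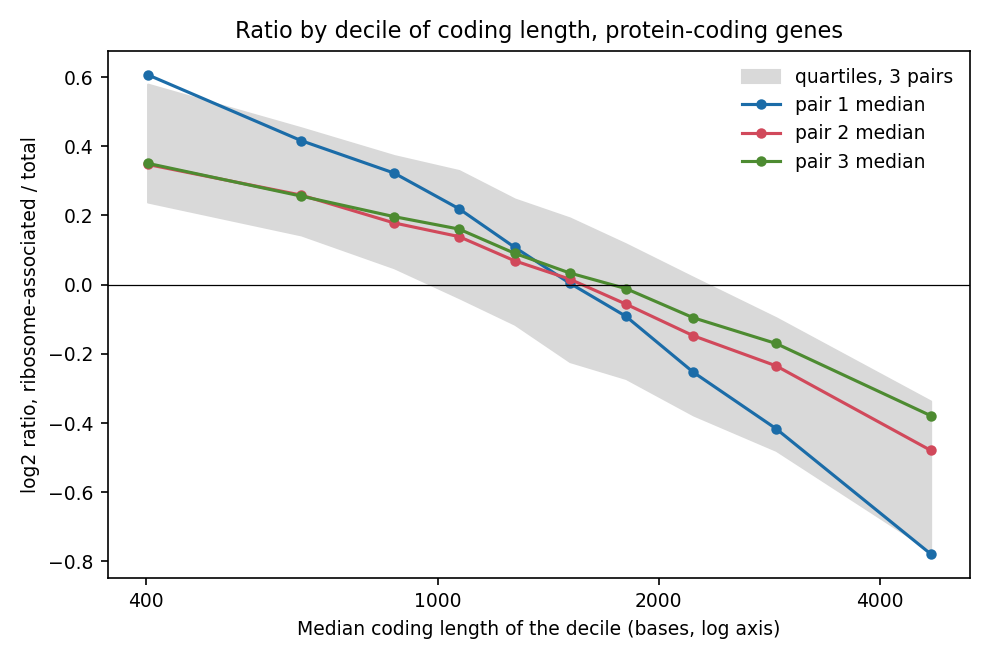
Median log2 ratio of ribosome-associated to total RNA in each decile of coding length, plotted at the decile's median coding length on a log axis, where coloured lines are the 3 pairs and the grey band spans the quartiles of the fit over all pairs. Every pair runs from above 0 to below 0, and pair 1 is the steepest, from 0.61 to -0.78.

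Ribosomal protein messages were the group with the highest ratios. Of 49 large-subunit genes 46 rose and 1 fell (median 0.77), and of 34 small-subunit genes 33 rose and 1 fell (median 0.80). Without pair 1 the medians were 0.68 and 0.70, with 46 and 33 rising and 2 and 1 falling. Rpl31 (ENSMUSG00000073702, chromosome 1, 39367842 to 39371911, plus strand) went from 303, 291 and 259 CPM to 684, 516 and 521 CPM, a log2 ratio of 1.00 (SE 0.08, adjusted p = 5.5e-07). Rps28 went from 262, 240 and 253 CPM to 663, 456 and 479 CPM (1.06, SE 0.09). In both genes the groups lay apart and pair 1 changed most. Rpl38 (1.00, SE 0.08), Rpl39 (1.00, SE 0.08), Rps29 (0.98, SE 0.09), Rps27 (0.96, SE 0.08) and Rps25 (0.92, SE 0.08) had similar ratios. As a share of all gene counts, the ribosomal protein genes took 3.21, 3.16 and 3.39% of total RNA and 5.95, 4.81 and 5.18% of ribosome-associated RNA (exact permutation test, two-sided, p = 0.1).

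The shortest annotated coding sequence among the genes tested belongs to this group, and it is printed in full because it marks the short end of the length relation. Rpl41 encodes 25 codons before its stop at chr10:128548387-128548960 (GRCm38, minus strand, spanning a splice junction); capitals mark the start and stop codons.

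Rpl41: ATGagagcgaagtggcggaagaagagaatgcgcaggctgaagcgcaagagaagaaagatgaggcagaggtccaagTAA

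Rpl41 was at 354, 373 and 430 CPM in total RNA and at 895, 602 and 606 CPM in ribosome-associated RNA, so that all libraries of the second kind lay above the first (log2 ratio 0.84, SE 0.14, adjusted p = 0.00093). Relative to their own coding-length decile, the median ribosomal protein gene lay 0.40 higher in both subunits, and 79 of 83 lay above their decile. The 2 falls, singled out after their values were seen, were Rps10 (5.88, 5.91 and 5.96 CPM to 2.04, 1.96 and 1.94 CPM; -1.58, SE 0.17) and Rpl24 (0.558, 0.985 and 0.614 CPM to 0.186, 0.401 and 0.162 CPM; -1.55, SE 0.46). Both are at far lower levels than the other members, and 28.7 and 47.0% of their exonic bases are annotated to other genes as well, RPS10-NUDT3 and Gm15420 for Rps10 and Gm28037 for Rpl24. Their ratios are therefore uncertain. Rps27rt (1.58, SE 0.40, adjusted p = 0.021), whose ratio was 0.96 without pair 1 and 2.08 without pair 2, is a near copy of Rps27, so its reads are uncertain. Rps27rt was at 3.38, 4.48 and 2.06 CPM in total RNA and at 20.0, 6.28 and 5.74 CPM on ribosomes, where replicate 1 stood apart.

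The other parts of the translation machinery rose less. Of 21 further TOP messages, 19 rose and none fell (median 0.50, and 0.42 without pair 1). Tpt1, translationally controlled tumour protein, went from 1189, 1200 and 1125 CPM to 2558, 2112 and 1929 CPM (0.90, SE 0.09, adjusted p = 2.9e-06). Eef1a1, which brings aminoacyl-tRNA to the ribosome, went from 5198, 4955 and 5169 CPM to 8024, 7006 and 7496 CPM (0.55, SE 0.09), again without overlap. Naca (0.72, SE 0.07) and Btf3 (0.67, SE 0.08), the subunits of the nascent polypeptide-associated complex, and Eif3h (0.65, SE 0.08) rose too. The translocase Eef2 (0.27, SE 0.08) and poly(A)-binding protein Pabpc1 (0.31, SE 0.08) rose less; Eef2 lost the call without pair 2 (adjusted p = 0.081) or pair 3 (0.12), and Pabpc1 without pair 2 (0.080). Relative to its coding-length decile this list lay 0.35 higher, with 20 of 21 members above their decile.

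Initiation and termination factors divided by size. Of 41, 26 rose and 4 fell (median 0.26). Eif2s2, a subunit of the factor that delivers the initiator tRNA (0.70, SE 0.07), Eif3i (0.69, SE 0.08), Eif3m (0.54, SE 0.07) and Eif1ax (0.52, SE 0.07) led the rises. The falls were Eif4g1, the scaffold that joins cap and ribosome (-0.68, SE 0.08), its relative Eif4g3 (-0.70), the eIF3 subunit Eif3a (-0.36, SE 0.09) and the release factor Gspt2 (-0.38). Eif4g1 went from 695, 674 and 669 CPM to 371, 462 and 448 CPM. In the 3 shortest deciles of coding length 15 of 18 members rose and none fell, and in the 3 longest 1 of 7 rose and 3 fell. Cytosolic aminoacyl-tRNA synthetases did the same around a median of 0.07: all 3 members in the 3 shortest deciles rose, and 6 of 10 in the 3 longest fell. Aimp1 (0.40, SE 0.08), a scaffold of the synthetase complex, Farsb (0.35, SE 0.08) and Kars (0.29, SE 0.07) rose, while Vars (-0.46) and Cars (-0.39) fell. The synthetases had 6 rises and 4 falls without pair 2.

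Nuclear genes for mitochondrial proteins rose as groups. Of 76 respiratory chain subunits 66 rose and 2 fell (median 0.52, and 0.42 without pair 1), and of 76 mitochondrial ribosomal proteins 61 rose and 2 fell (0.38, and 0.32 without pair 1). Cox7a2, a subunit of cytochrome c oxidase, went from 50.1, 47.8 and 42.7 CPM to 94.7, 74.5 and 73.2 CPM (0.78, SE 0.08), and Uqcrh of complex III from 82.2, 81.2 and 87.1 CPM to 164, 132 and 138 CPM (0.79, SE 0.08). All 3 ribosome-associated libraries lay above the total libraries for both. Cox7b (0.75, SE 0.08), Ndufa3 (0.73, SE 0.08), Mrpl30 (0.72, SE 0.09) and Mrpl42 (0.68, SE 0.08) were close. These messages are short, and relative to their coding-length deciles the list medians were 0.14 and 0.0585. Sdha, the large flavoprotein subunit of complex II, was at -0.01 (SE 0.07) and did not pass.

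Transcripts encoded by mitochondrial DNA are translated by ribosomes of the organelle, which a ribosome pellet may also hold. Of 11 tested messages 5 rose and none fell, with a median of 0.39 that was 0.16 without pair 1. Without the replicate block none passed. The cytochrome oxidase subunit mt-Co1 went from 7229, 7243 and 5036 CPM to 8345, 9577 and 7778 CPM (0.41, SE 0.10, adjusted p = 0.0031), and mt-Cytb was at 0.39 (SE 0.11). Total RNA of replicate 3 was the lowest for both, and without pair 3 neither passed (adjusted p = 0.063 and 0.22). mt-Nd1 was at 0.04 (SE 0.09). The small mitochondrial ribosomal RNA mt-Rnr1 fell, from 340, 327 and 312 CPM to 243, 233 and 195 CPM (-0.55, SE 0.07, adjusted p = 4.3e-05), and the large one, mt-Rnr2, was at 0.20 without passing. The share of all mitochondrially encoded genes averaged 1.76 ± 0.34% for total and 2.00 ± 0.16% for ribosome-associated libraries (SD, n = 3 each; exact permutation test, two-sided, p = 0.5).

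Fibroblasts secrete much of what they make, and messages for the entry into the endoplasmic reticulum (ER) rose. Of 47 ER chaperones and translocon genes 37 rose and 1 fell (median 0.31). Ost4, a subunit of the enzyme that adds N-linked sugars, went from 82.8, 82.3 and 77.1 CPM to 165, 124 and 130 CPM (0.78, SE 0.08), though 53.2% of its exonic bases are shared with Agbl5. Sec61b (0.65, SE 0.08), a subunit of the protein-conducting channel, Spcs1 (0.66, SE 0.08) of the signal peptidase and Ssr2 (0.61, SE 0.07) of the translocon rose without overlap. The fall was that of Ern1, the stress sensor IRE1α (-0.58, SE 0.09). In the fit without pair 2, 21 rose, with a median of 0.30.

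Secreted factors behaved likewise, with 33 of 48 rising and 2 falling (median 0.30). Igfbp2, an insulin-like growth factor binding protein, went from 507, 1213 and 604 CPM to 894, 1887 and 775 CPM, so the cultures differed more than the RNA sources while the ratio was above 0 in each pair (0.61, SE 0.09). The chemokine Ccl2 (0.55, SE 0.08), the protease inhibitor Timp1 (0.55, SE 0.09) and Igf1 (0.44, SE 0.07) rose too. Vegfa, the endothelial growth factor, was the lowest of the list although its coding sequence has 627 bases: it fell from 95.1, 105 and 98.7 CPM to 45.8, 62.2 and 50.5 CPM (-0.92, SE 0.08, adjusted p = 9.2e-07). It is named for that value. The list had 17 rises and 2 falls without pair 2. Of 42 lysosomal genes 25 rose and 2 fell (0.20, with 13 and 1 without pair 2), among them Npc2, a cholesterol carrier, from 710, 747 and 707 CPM to 1280, 1088 and 1046 CPM (0.65, SE 0.08), and the proteases Ctsk (0.47, SE 0.07) and Ctsl (0.47, SE 0.08).

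Collagen messages fell: 17 of 27 tested chains were lower and none higher, beside 25.9% of all genes that were lower. The list median was -0.33, and -0.25 with 1 rise without pair 1. The list does not hold Col11a2 and Col20a1, which fell further and are named below. Col7a1, the anchoring fibril collagen, went from 34.8, 20.2 and 19.8 CPM to 7.18, 5.75 and 5.31 CPM (-2.0, SE 0.12, adjusted p = 2.3e-08), and Col27a1 from 108, 119 and 85.3 CPM to 26.9, 37.2 and 26.4 CPM (-1.78, SE 0.09). Col5a3 (-0.90, SE 0.11) and Col6a3 (-0.74, SE 0.09) were lower by less. The main fibrillar chains moved little: Col1a1 went from 10089, 12376 and 8060 CPM to 8203, 11165 and 6094 CPM, with overlapping groups (-0.28, SE 0.09, adjusted p = 0.020), and Col1a2 was at -0.26 (SE 0.09). Both lost the call without pair 2 (adjusted p = 0.054 and 0.084) or pair 3 (0.20 and 0.16). All 27 chains lie in the 3 longest deciles of coding length, in which 35.8, 51.9 and 78.8% of genes were lower. Relative to their deciles the list median was 0.18, with 21 of 27 above.

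Other secreted matrix proteins split by length, with 15 of 40 rising and 16 falling (median -0.12). All 5 members of the 3 shortest deciles rose, and 15 of 24 in the 3 longest fell. The long laminin chain Lama5 went from 107, 76.1 and 124 CPM to 41.1, 41.4 and 56.8 CPM (-1.13, SE 0.09), and perlecan, Hspg2, was at -0.92 (SE 0.09). The short proteoglycans ran the other way, with Ogn from 637, 693 and 940 CPM to 1018, 992 and 1269 CPM (0.54, SE 0.08) and Dcn, decorin, at 0.47 (SE 0.08). Without pair 2 the split was 9 rises to 14 falls. Of 55 integrins and surface receptors 6 rose and 14 fell, the latter share near the 25.9% of all genes (list median -0.09, with 10 and 13 without pair 1 and 2 and 15 without pair 2), and the falls included the endocytic receptor Lrp1 (-0.92, SE 0.10), Notch1 (-0.73, SE 0.08) and Notch3 (-0.70, SE 0.08); relative to their deciles 48 of the 55 lay above 0.

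The cytoskeleton showed both ends of the length relation within 1 system. Of 38 actin and contractile genes 25 rose and 9 fell. The 9 falls were exactly the 9 members in the 3 longest deciles, among them Flna, talin Tln1, the nonmuscle myosin Myh9, the actinin Actn1 and vinculin Vcl. Flna, which crosslinks actin filaments, went from 1564, 1650 and 1342 CPM to 746, 926 and 784 CPM (-0.89, SE 0.08). Tmsb4x, thymosin beta 4, which sequesters actin monomers, went from 950, 895 and 662 CPM to 1816, 1342 and 1035 CPM (0.72, SE 0.09), and Arpc3 (0.57, SE 0.07), Tmsb10 (0.58, SE 0.08) and Myl9 (0.60, SE 0.08) rose. Actb was at 0.30 (SE 0.09). In the microtubule list 11 of 24 rose and 9 fell, and all 8 members of the 3 longest deciles fell, among them Dync1h1, the dynein heavy chain, from 645, 594 and 536 CPM to 213, 289 and 241 CPM (-1.26, SE 0.10). Tubulins such as Tuba1b (0.57, SE 0.08) and Tubb2b (0.53, SE 0.08) rose, as did the depolymerizing protein Stmn1 (0.57, SE 0.09).

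One group fell far beyond its length. CLK kinases phosphorylate splicing factors, and their messages and those of many splicing regulators are known for detained introns, which hold a polyadenylated transcript in the nucleus until it is spliced. Of 37 such genes 36 fell and 1 rose (median -0.95), beside 25.9% of all genes that fell. This list was written with earlier results of these data known, so the count describes its members and is not a test. The coding-length deciles of the 37 genes had a median of 0.0241, and relative to them the list lay at -0.94 with 36 of 37 below. Clk1 (ENSMUSG00000026034, chromosome 1, 58410189 to 58424066, minus strand) went from 162, 158 and 144 CPM to 51.6, 62.0 and 45.3 CPM (-1.55, SE 0.08, adjusted p = 8.9e-09). Clk4 went from 78.4, 82.2 and 78.7 CPM to 26.6, 27.9 and 27.4 CPM (-1.54, SE 0.08), and Ccnl2, a cyclin of splicing, from 215, 209 and 197 CPM to 53.6, 59.1 and 42.3 CPM (-2.01, SE 0.08), a 4.04-fold difference. The sources lay apart in every library for these 3 genes. Ogt, which attaches O-GlcNAc (-1.63, SE 0.08), and Mdm4, an inhibitor of p53 (-1.57, SE 0.07), were equally low. Tra2b, a splicing activator, was the 1 rise (0.22, SE 0.07, adjusted p = 0.025). Without pair 1 the list kept 36 falls and 1 rise (median -0.91).

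The other SR proteins and hnRNPs were more mixed, with 19 of 38 falling and 9 rising (median -0.20). Srsf11 went from 282, 289 and 256 CPM to 121, 137 and 105 CPM (-1.20, SE 0.07), Ptbp2 was at -1.09 (SE 0.08) and Hnrnph1 at -0.85 (SE 0.07), while the cold-inducible Rbm3 rose from 172, 156 and 148 CPM to 281, 217 and 207 CPM (0.56, SE 0.07). Without pair 2 the counts were 11 and 7, and without pair 3 19 and 4. Across all protein-coding genes, those with more annotated retained-intron transcripts had lower ratios by that count. The 5544 genes with none had a median of 0.13, with 16.1% falling, and the 1686 with 4 or more had -0.25, with 50.7% falling; relative to coding-length deciles these medians were 0.0327 and -0.0856. Annotated nonsense-mediated decay transcripts gave a like order, from 0.0182 with none (9526 genes) to -0.16 with 4 or more (197 genes) on the same relative scale. The number of annotated transcripts also depends on how well a gene has been studied, and its part in these values was not tested. Of the 37 detained-intron genes, 33 have a retained-intron transcript in the annotation, against 7691 of 13235 protein-coding genes tested, but so do 30 of the 34 small-subunit ribosomal protein genes, 33 of which rose, and all 23 synthetases. By the share of exonic bases found only in retained-intron transcripts, ratios were ordered up to 50% but not beyond. Relative to coding-length deciles the median was 0.0323 at 0% (5573 genes). It was -0.0155, -0.023 and -0.0272 in the classes ending at 10, 25 and 50%, and -0.0157 over 50%. Before that subtraction, genes with over 50% (1022) had a median of 0.0451, and those with over 25 to 50% (2524) had -0.0733.

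All 38 chromatin regulators with long messages fell, beside 25.9% of all genes and 78.8% of genes in the longest decile of coding length. Their median was -0.75 (-0.57 and 36 falls without pair 1). The list was picked for long messages, and all 38 members lie in the 3 longest deciles. Kmt2d (ENSMUSG00000048154, chromosome 15, 98831669 to 98871204, minus strand), a histone H3 methyltransferase with 16767 coding bases, went from 137, 127 and 131 CPM to 24.3, 34.0 and 34.0 CPM (-2.10, SE 0.11, adjusted p = 1.0e-08). Kmt2a (-1.64, SE 0.11), the DNA demethylase Tet2 (-1.46, SE 0.10) and Trrap, a scaffold of acetyltransferase complexes (-1.20, SE 0.09), followed. Relative to the longest deciles the list median was -0.20, with 28 of 38 below. Htt itself (ENSMUSG00000029104, chromosome 5, 34761740 to 34912534, plus strand), which has 9363 coding bases, went from 59.0, 45.6 and 63.1 CPM to 22.5, 19.5 and 31.7 CPM (-1.19, SE 0.09, adjusted p = 2.7e-07) in these cells with both alleles intact; it lay 0.65 below its decile.

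Some messages are known for regulation through the 5′ untranslated region. In the integrated stress response, phosphorylated eIF2 lowers general initiation while short upstream frames let messages such as Atf4 escape. Every ATG-started frame of 3 to 9 codons that ends within the 5′ untranslated region of the annotated transcript used is shown for 6 such genes, so that the values can be read beside the short frames of each message; longer frames and those with other start codons are not shown, and which frame acts was not tested. Capitals mark the start and stop codons, and coordinates are GRCm38.

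Atf4, chr15:80255582-80255593, plus strand: ATGgcgtatTAG
Atf5, chr7:44816526-44816537, minus strand: ATGgctctgTAG
Ppp1r15a, chr7:45525851-45525868, minus strand: ATGgcttatttggtcTGA
Amd1, chr10:40302155-40302175, minus strand: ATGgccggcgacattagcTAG
Odc1, chr12:17544921-17544947, plus strand: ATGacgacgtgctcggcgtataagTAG
Azin1, chr15:38514482-38514505, minus strand: ATGatagggggttccatctccTAA
Azin1, chr15:38501507-38501536, minus strand: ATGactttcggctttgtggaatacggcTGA

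An ATG occurs in 53.2% of the 13045 annotated 5′ untranslated regions, so its presence alone sets no gene apart. Of 29 tested ATF4 and upstream-frame stress genes 12 rose and 1 fell (median 0.14), beside 24.3 and 25.9% of all genes. Relative to coding-length deciles the list median was 0.092, with 20 above and 9 below. Without the replicate block 5 rose and 0 fell. Atf4, the stress transcription factor, went from 160, 169 and 176 CPM to 234, 220 and 210 CPM (0.39, SE 0.08, adjusted p = 0.00071), with no overlap. Atf5 rose by 0.33 (SE 0.07), from 253, 298 and 192 CPM to 342, 366 and 231 CPM. Ppp1r15a, the phosphatase subunit GADD34 that reverses eIF2 phosphorylation, was at 0.21 (SE 0.08, adjusted p = 0.036) and lost the call without pair 2 (0.30) or pair 3 (0.062) and in DESeq2 (0.092). Ddit3, the factor CHOP, was at 44.9, 39.7 and 31.6 CPM and 56.2, 46.8 and 27.8 CPM, and its log2 ratio of 0.13 (SE 0.10) did not pass. Of the downstream genes, Cebpb (0.53, SE 0.10), Nupr1 (0.50, SE 0.08), Psat1 of serine synthesis (0.43, SE 0.07) and Ddit4 (0.41, SE 0.07) rose, and Aldh1l2 (-0.45) fell.

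In polyamine synthesis the 6-codon upstream frame of Amd1 is known to stall ribosomes when polyamines are high, and Oaz1, the antizyme, is read through a polyamine-driven frameshift. Of 11 genes 6 rose and none fell (median 0.21). Oaz1 went from 226, 217 and 244 CPM to 352, 254 and 293 CPM (0.38, SE 0.09), and Oaz2 was at 0.34 (SE 0.08). Odc1, the first enzyme of the pathway, was at 54.6, 66.2 and 62.7 CPM and 65.2, 74.5 and 72.5 CPM (0.21, SE 0.07, adjusted p = 0.026), and Amd1 at 45.5, 42.7 and 54.1 CPM and 54.7, 48.4 and 67.4 CPM (0.26, SE 0.08, adjusted p = 0.011). The groups overlapped for both, and both lost the call without pair 2 (adjusted p = 0.16 for Odc1 and 0.070 for Amd1) or pair 3 (0.11 and 0.094). Azin1, the antizyme inhibitor, was at 0.04 (SE 0.07). Without pair 2 or pair 3 the list had 2 or 3 rises. Relative to coding-length deciles the list median was -0.00678.

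Ferritin messages carry an iron-responsive element, a hairpin in the 5′ untranslated region that binds iron regulatory proteins and blocks initiation when iron is low. The 30-base windows around the hairpin loop are printed because these 2 short messages lay below others of their length; capitals mark the CAGTGN loop. In the annotated transcripts used, the windows span bases 658 to 687 for Fth1, whose annotated 5′ untranslated region has 795 bases, and bases 78 to 107 for Ftl1.

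Fth1, chr19:9982732-9982761, plus strand: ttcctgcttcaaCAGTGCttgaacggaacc
Ftl1, chr7:45459778-45459807, minus strand: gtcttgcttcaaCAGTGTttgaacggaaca

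The letters CAGTGC occur in 7.87% and CAGTGT in 5.71% of the annotated 5′ untranslated regions, and the loop letters alone do not define the element. Fth1, the ferritin heavy chain, was at 1530, 1060 and 1205 CPM in total RNA and at 1609, 902 and 818 CPM in ribosome-associated RNA, a log2 ratio of -0.24 (SE 0.10, adjusted p = 0.067). Pair 1 was above 0 and pairs 2 and 3 below, and without pair 1 the ratio was -0.39 and passed (adjusted p = 7.5e-10). That fit leaves out the pair of opposite sign. Without pair 2 or pair 3 the ratio was -0.25 or -0.078 and did not pass (adjusted p = 0.14 and 0.65). Ftl1, the light chain, was at 1535, 1182 and 1542 CPM and at 1940, 1139 and 1155 CPM (-0.04, SE 0.12, adjusted p = 0.78), and at -0.23 without pair 1 (adjusted p = 0.00051). Without pair 2 or pair 3 Ftl1 was at -0.051 or 0.14 and did not pass (adjusted p = 0.81 and 0.38). With 549 and 552 coding bases they lay 0.56 and 0.36 below their coding-length deciles. Tfrc, the transferrin receptor, whose elements lie in the 3′ untranslated region, was at 0.11 (SE 0.10) and did not pass. Of the 12 iron-responsive genes none rose and 3 fell (median -0.12), the latter share near the 25.9% of all genes. The falls were Cdc42bpa (-0.55, SE 0.09), Cdc14a (-0.54, SE 0.16) and Ireb2, which encodes an iron regulatory protein (-0.24, SE 0.08). Relative to coding-length deciles the list median was 0.0173, with 6 genes above and 6 below. Without pair 1 there were 1 rise and 5 falls, and without pair 2 1 fall, and 34.6% of the exonic bases of Ftl1 are annotated to other genes as well.

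Transcription factors and other regulators were called higher about as often as all genes (24.3%) or less. Of 32 immediate-early genes 7 rose and 3 fell (0.09), and relative to their coding-length deciles 24 lay below (median -0.11). Id2 (0.43, SE 0.07), Id3 (0.41, SE 0.08) and Id1 (0.38, SE 0.08), inhibitors of helix-loop-helix factors, rose, while Fos (-0.08), Jun (0.08), Egr1 (0.04) and Myc (0.03) did not pass. Of 30 short-lived regulators 7 rose, led by Twist1 (0.46, SE 0.07), and 5 fell, with Kdm6b lowest (-0.73, SE 0.09). Of 41 Hox and homeobox genes 6 rose and 12 fell (0.02, and -0.21 relative to deciles). Hoxa9 went from 20.5, 15.3 and 24.0 CPM to 11.7, 7.98 and 11.6 CPM (-0.94, SE 0.10, adjusted p = 7.1e-06), without overlap, and Hoxa5 (-0.78, SE 0.16), Hoxb3 (-0.73, SE 0.12) and Hoxc4 (-0.98, SE 0.17) fell. Hoxb3 shares 52.9% of its exonic bases with Hoxb3os, and Hox clusters hold many overlapping and antisense transcripts. Without pair 2 the counts were 5 and 0 for immediate-early, 5 and 3 for short-lived and 3 and 8 for Hox genes.

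Replication-dependent histone messages, which end in a stem-loop in place of a poly(A) tail, gave 6 rises and 5 falls among 24 tested, shares near the 24.3 and 25.9% of all genes (median 0.29, with 4 and 4 without pair 1 and 3 and 2 without pair 2). Hist1h1c, a linker histone, went from 116, 145 and 83.9 CPM to 187, 198 and 111 CPM (0.52, SE 0.08). Hist1h2bf (0.74, SE 0.12) and Hist1h2bm (0.66, SE 0.17, and adjusted p = 0.15 without pair 2) rose, but the H2B-eGFP vector may add reads to them, and the sources of reads cannot be separated. Hist1h2bc was at 0.54 (SE 0.09).

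Housekeeping groups differed in how many members rose, beside 24.3% of all genes. Proteasome subunits had 25 of 31 higher and none lower (0.37), with Psmb7 from 110, 112 and 105 CPM to 189, 163 and 161 CPM (0.65, SE 0.07), Psmb3 (0.65, SE 0.08) and Psmb1 (0.62, SE 0.08). Selenoproteins, which recode a UGA stop as selenocysteine, had 14 of 20 higher and none lower (0.44): Selenof went from 303, 357 and 298 CPM to 528, 517 and 458 CPM (0.65, SE 0.08), and Selenow (0.62, SE 0.09), Gpx3 (0.63, SE 0.08) and Selenop (0.53, SE 0.07) rose. Among 15 glycolytic genes 8 rose and 3 fell (0.23), with Tpi1 (0.61, SE 0.07), Gapdh (0.52, SE 0.08) and Pgk1 (0.45, SE 0.07) higher and the hexokinases Hk1 (-0.21) and Hk2 (-0.39) lower. Cytosolic chaperones had 12 of 22 higher and 1 lower (0.22), with the mitochondrial co-chaperonin Hspe1 at 0.74 (SE 0.08), the chaperonin subunit Cct5 at 0.42 (SE 0.07) and Hspa8 at 0.39 (SE 0.08). Of 36 cell cycle genes 12 rose and 4 fell (0.10): the replication genes Gins2 (0.59, SE 0.10), Tyms (0.50, SE 0.08) and Pcna (0.36, SE 0.07) were higher and the long kinetochore genes Cenpf (-0.44) and Cenpe (-0.35) lower. Of 21 cholesterol synthesis genes 8 rose and 4 fell (0.17), among them Msmo1 (0.30, SE 0.07) and Cyp51 (0.30, SE 0.07), which lost the call without pair 2 (adjusted p = 0.054 and 0.081). Without pair 2 the counts were 7 and 0 for chaperones, 7 and 5 for cell cycle, 6 and 1 for glycolysis and 4 and 3 for cholesterol genes.

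**Figure D4:**
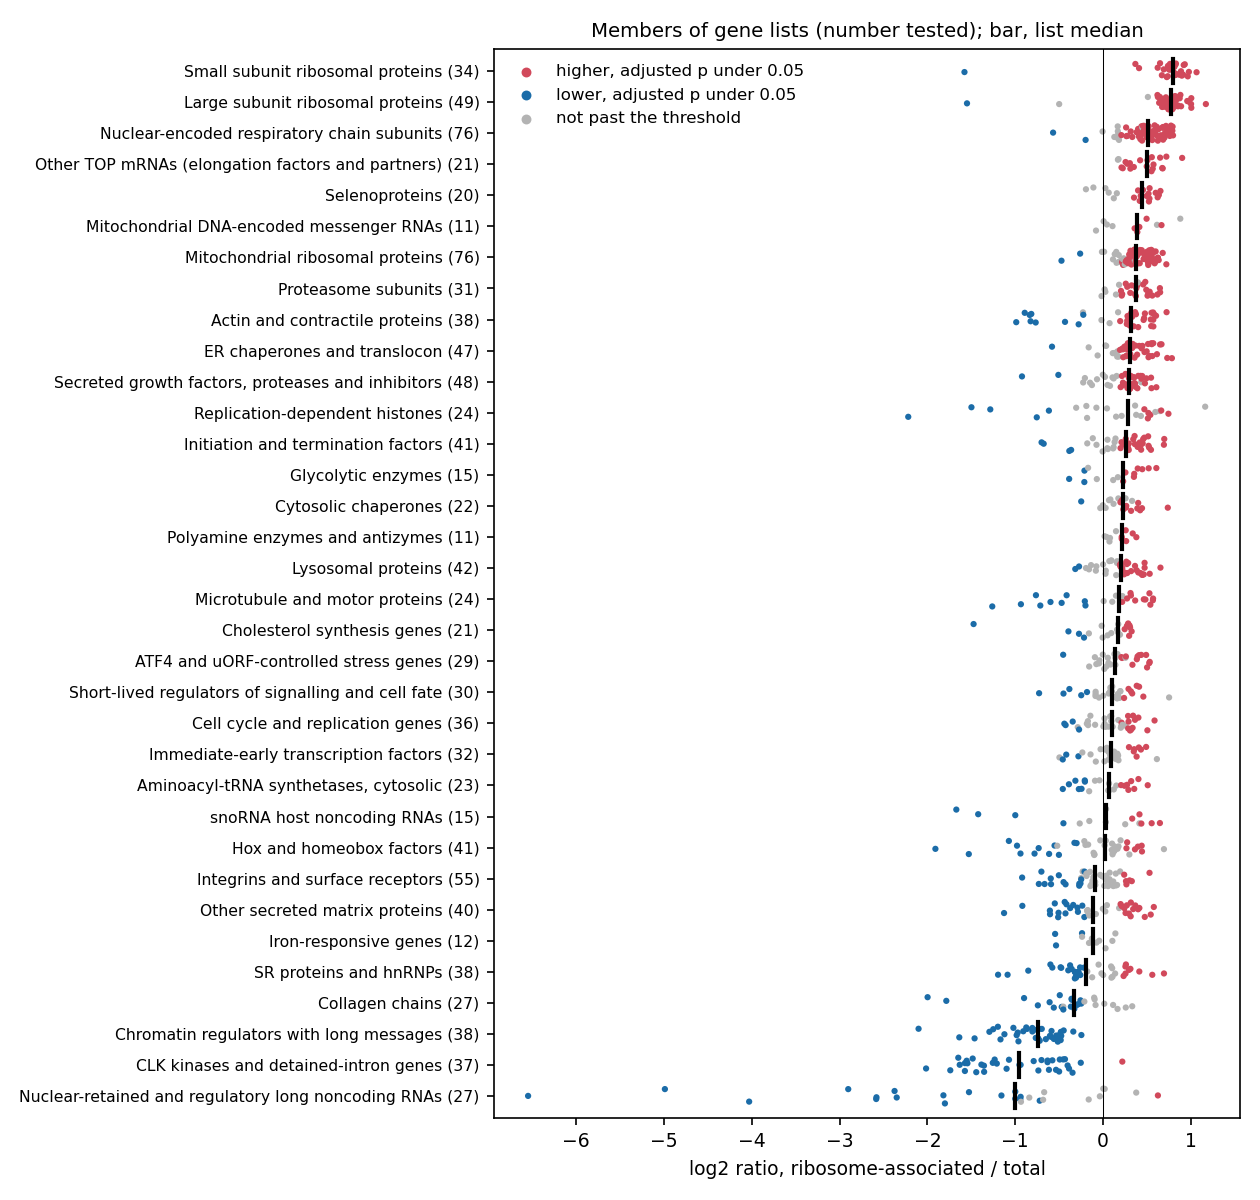
Log2 ratio of ribosome-associated to total RNA for each tested member of the lists with 10 or more tested members, ordered by list median (black bars), where red points were higher and blue points lower at an adjusted p under 0.05, and grey points did not pass. Ribosomal proteins lie highest at 0.80 and 0.77, and chromatin regulators, CLK and detained-intron genes and nuclear noncoding RNAs lowest at -0.75, -0.95 and -1.0.

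Subtracting the median of the coding-length decile changed the order of the lists. Over 31 lists with 10 or more members and a coding length, 23 lay above their deciles and 8 below. Of lists with a median above 0, 5 lay below their deciles: histones (-0.15), immediate-early genes (-0.11), short-lived regulators (-0.0689), Hox genes (-0.21) and polyamine genes. Of lists with a median below 0, 4 lay above: collagens (0.18), other matrix proteins (0.17), surface receptors (0.16) and iron-responsive genes (0.0173). Ribosomal proteins and the other TOP messages remained highest, and the CLK and detained-intron genes lowest.

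**Figure D5:**
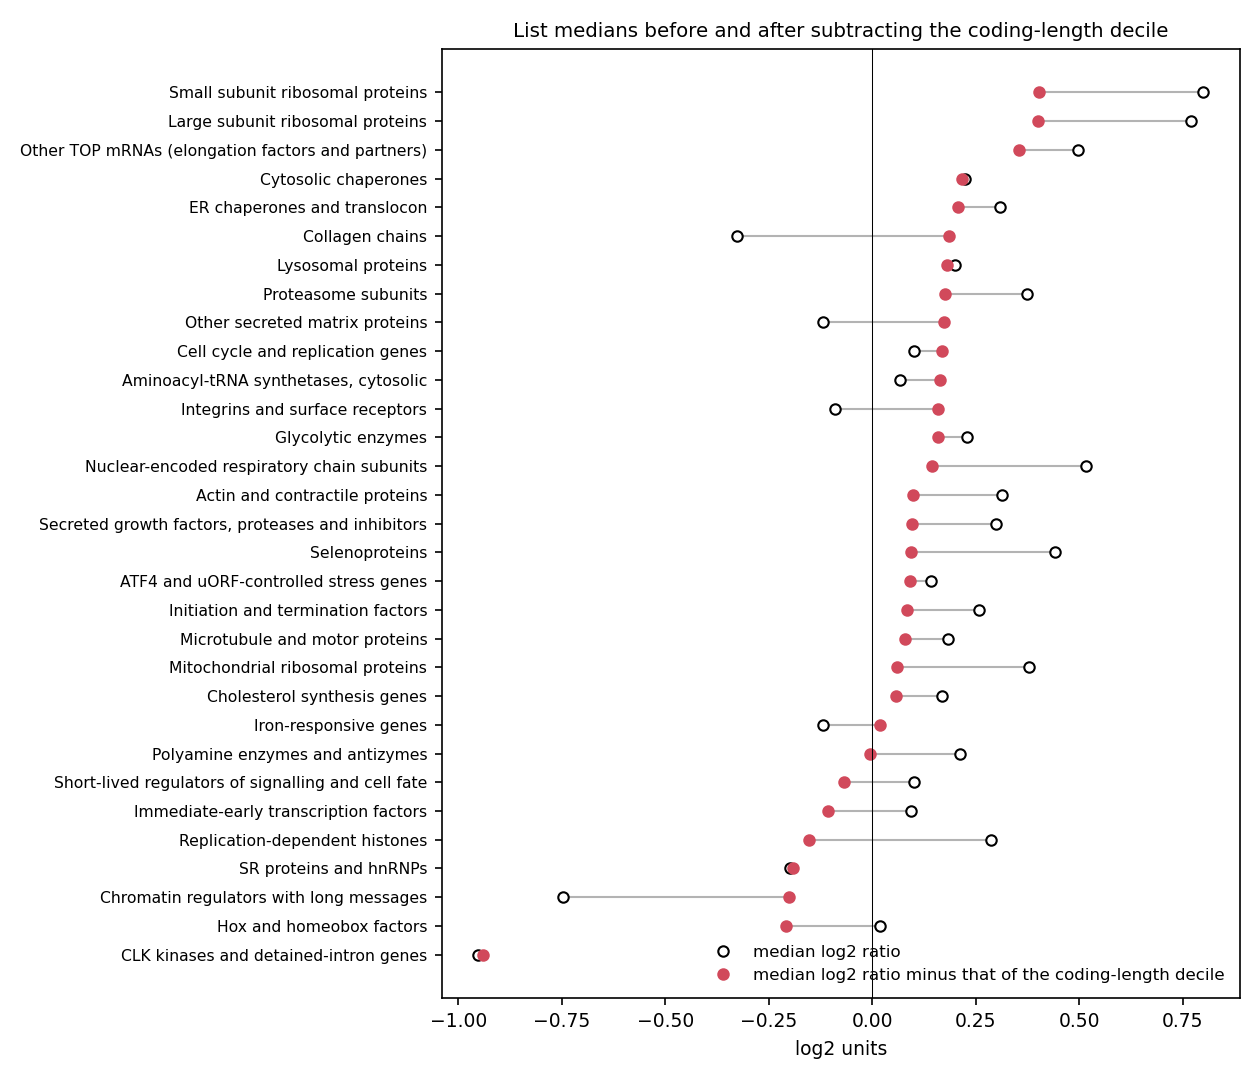
Median log2 ratio of each list (open circles) and its median after subtracting from every member the median of its decile of coding length (red circles), in log2 units. The ribosomal protein lists move from 0.77 and 0.80 to 0.40, the collagen list crosses from -0.33 to 0.18, and the CLK and detained-intron list stays at -0.94.

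Beyond the lists, the largest falls among protein-coding genes with at least 5 CPM were in Tnfrsf25, a death receptor (6.44, 6.16 and 6.82 CPM to 0.557, 1.07 and 0.583 CPM; -3.14, SE 0.24), Spaca6, a sperm membrane protein (71.9, 64.0 and 53.9 CPM to 8.42, 11.9 and 6.48 CPM; -2.84, SE 0.12), Col11a2 (-2.55, SE 0.13) and the metalloprotease Adam33 (130, 112 and 89.0 CPM to 21.4, 23.6 and 13.7 CPM; -2.51, SE 0.10). Leng8 (ENSMUSG00000035545, chromosome 7, 4137039 to 4148177, plus strand) went from 185, 178 and 160 CPM to 27.4, 31.8 and 33.2 CPM (-2.50, SE 0.09, adjusted p = 8.3e-10). Rgs11 (-2.42, SE 0.17), Col20a1 (-2.36, SE 0.22), the meiotic cohesin Stag3 (-2.34, SE 0.20) and Ttll3 (-2.21, SE 0.18) completed the group with Kmt2d. The sources did not overlap in any of these, and all but Col11a2, Col20a1, Stag3 and Kmt2d lie outside the longest decile of coding length. Spaca6 spans Mir125a, with 0.665% of its exonic bases shared. Among protein-coding genes with at least 5 CPM and no overlap between sources, the largest rises outside the ribosomal proteins were Lgals1, galectin-1 (ENSMUSG00000068220, chromosome 15, 78926725 to 78930465, plus strand), from 819, 711 and 779 CPM to 1736, 1310 and 1587 CPM (1.00, SE 0.08), and Ppbp, a chemokine, from 2.63, 2.96 and 3.90 CPM to 5.57, 5.66 and 7.88 CPM (1.01, SE 0.16). Among genes not annotated as protein-coding, Ndufb1-ps (0.72, SE 0.10), Ptpmt1 (0.66, SE 0.15) and Ifi30 (0.39, SE 0.07) rose, and 52.3% of the exonic bases of Ptpmt1 are shared with other genes; Mir5125 (-4.86, SE 0.25) and Mirg (-2.90, SE 0.17) fell.

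Markers of other cells were also set against the RNA source. Of 15 macrophage markers all 15 were tested, 12 rose and none fell (median 0.54, and 0.49 without pair 1), while without the replicate block none passed. Their summed level was 3150.1, 769 and 1756 CPM in total RNA and 4819, 1146 and 2571 CPM in ribosome-associated RNA, so the cultures differed more than the sources and each pair moved up. Lyz2, lysozyme, went from 1669, 396 and 1008 CPM to 2819, 633 and 1515 CPM (0.67, SE 0.08), and C1qa (0.67, SE 0.07), C1qb (0.64, SE 0.07) and C1qc (0.73, SE 0.07) of complement rose. All 15 lay above their coding-length deciles (median 0.32). Both sources of a pair came from 1 suspension, and the part of these cells in other results was not tested. Endothelial markers summed to 62.7 to 66.8 and 67.9 to 73.4 CPM, neural markers to 203 to 256 and 122 to 178 CPM, and mesothelial and epithelial markers to 7.54 to 30.1 and 8.69 to 43.2 CPM in total and ribosome-associated RNA. Most of the endothelial sum was Eng, at 38.5 to 58.2 CPM, while Pecam1, Cdh5 and Tie1 had 8, 8 and 10 reads over the 6 libraries. Most of the neural sum was Map2, at 80.8 to 213 CPM, while Dcx and Elavl3 had 6 reads each. Of 7 neural markers tested, with a median of 0.20, none rose and 2 fell, Map2 (-0.65, SE 0.07) and Nes (-0.92, SE 0.11), both in the longest decile. Cartilage and bone markers summed to 256 to 328 CPM in total RNA and 300 to 371 CPM in ribosome-associated RNA, and skeletal muscle markers to 2.06 to 13.3 and 2.30 to 21.3 CPM, with Myod1 at 0 reads. The largest cartilage and bone member was Col10a1, at 129 to 306 CPM, while Sp7 and Bglap had 39 and 19 reads over the 6 libraries. Ibsp was at 9.98 CPM in ribosome-associated replicate 2 and at most 0.713 CPM elsewhere.

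The same contrast in HTT-deleted cells uses none of the control libraries. With all 3 pairs it called 97 of 14627 genes (0.663%), and total HTT-deleted replicate 1 is a library that stood apart: its ribosomal protein share was 7.10%, the highest of the 3. In pairs 2 and 3 alone 8333 of 14981 genes (55.6%) were called. Of the genes higher in control ribosome-associated RNA and tested there, 3610 of 3629 (99.5%) had the same sign in those pairs and 3181 were called; of the genes lower, 3786 of 3806 (99.5%) had the same sign and 3416 were called. With all 3 pairs the shares of same sign were 91.5 and 92.6%, and 0 of the genes higher and 96 of the genes lower were called. Ratios were also smaller with all 3 pairs. Over the genes tested in both, the medians were 0.24 and -0.37 in HTT-deleted cells, against 0.40 and -0.56 in control cells. In pairs 2 and 3 alone, single genes were close in size: Xist was at -6.75, Clk1 at -1.41, Kmt2d at -2.08, Htt at -1.25, Atf4 at 0.35 and Rpl31 at 0.85. The difference of the ratio between HTT-deleted and control cells, an interaction term over all 12 libraries in edgeR's quasi-likelihood test, called 0 of 15574 genes (0%), with 150 at an unadjusted p under 0.05 and a lowest adjusted p of 0.859, and DESeq2 called 0. This does not show that the ratios were equal.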

How the data were processed

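RNA of 3 control cultures was sequenced as total and as ribosome-associated RNA, 250 ng per library, with an RNA quality number above 9, per the labels' protocols. The values are raw read counts per gene, deposited by the authors; the submitters' processing notes name STAR 2.7.2b, HTSeq 0.11.1 and GRCm38, while no source used here gives the strand setting or annotation release. The 5 summary rows were dropped, and 55394 of 55487 genes matched GENCODE M21. Counts were fitted with edgeR 4.0.16 (filterByExpr, TMM, quasi-likelihood F test, replicate pair as a block, 2 residual degrees of freedom, Benjamini-Hochberg adjustment over 14990 genes, threshold 0.05); SE is the log2 ratio divided by the root of F. The labels pair the replicates by suspension, and deviations from group means correlated at 0.522, 0.758 and 0.671 within pairs 1, 2 and 3. Replicates differed beyond counting noise (chi-square per degree of freedom 36.1 to 77.4). In simulated counts 36, 78, 96 and 100% of genes changed 1.25-, 1.5-, 2- and 4-fold were recovered, with 14 false calls among 14591. Only 50 genes were changed at each fold, evenly up and down, and the rest not at all. In the data 50.2% of genes were called, so these rates need not hold there. Alternatives were other scalings and filters, DESeq2 1.42.0, limma 3.58.1 voom, no block, all 12 libraries and each pair left out.

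Members, lists and alternatives were chosen with earlier results of these data known. Genes named were the 10 protein-coding genes with the largest rise and fall and 5 and 8 others at 5 CPM or more whose groups did not overlap, up to 4 members with the smallest p per list, and a preset set; other members were named after their values were seen. An adjusted p is edgeR's throughout unless another tool is named.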

Additional observations from a re-analysis of the deposited data

How the results depend on the processing

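The replicate block decided how many genes passed: without the pairing 1499 genes were higher and 2246 lower, and with all 12 libraries in 1 fit 911 and 1968, against 3647 and 3877. Of 188 named genes, 5 of which had no call, 66 lost their call without the block, 75 with all 12 libraries, 3 in DESeq2 and 0 in voom. Leaving out 1 pair gave 2588 to 3657 higher and 3323 to 3788 lower genes and 0 interaction calls, and Spearman's correlation with coding length was -0.571 without pair 1. The scaling shifted the split: library size alone gave 2800 higher and 4438 lower, and upper-quartile scaling 4193 and 3584. With library size alone the medians of synthetases and of nuclear protein-coding genes were -0.00115 and -0.0373, those of Hox genes, snoRNA hosts, endothelial markers and cartilage and bone markers turned to -0.0518, -0.0352, -0.0546 and -0.0195, and mt-Nd1 was at -0.0259. With genes of at least 5 CPM, an alternative chosen after seeing the data, 3 neural markers were left with a median of -0.66, against 0.20 over 7. Relative to coding-length deciles, also chosen after seeing the data, medians changed sign for histones (-0.15), collagens (0.18), other matrix proteins (0.17), receptors (0.16), immediate-early genes (-0.11), short-lived regulators (-0.0689), Hox genes (-0.21), polyamine genes (-0.0068), iron-responsive genes (0.0173) and fibroblast markers (0.11). Single genes that reversed were Tfrc (-0.0151 without replicate 2, and up to 0.228 with another pair left out), Ftl1 (-0.234 to 0.143) and mt-Nd1 (-0.0595 without replicate 3, and 0.165 without replicate 1). The cause was not tested. The exact permutation test of library shares set 3 libraries against 3 without using the pairing, and it cannot go below 0.1.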
